A study of Arabidopsis thaliana with 8 samples.

Results

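Plasma membrane proton pumps and the phosphatases that switch them off were followed across 8 RNA-seq libraries of whole Arabidopsis seedlings. The 10 genes, of 26987 gene entries in the tables, were taken by locus. They were chosen with earlier results of these data known, so the choice was not blind to their values. Of these, 6 are pumps of the H+-ATPase family (AHA1 AT2G18960, AHA2 AT4G30190, AHA3 AT5G57350, AHA4 AT3G47950, AHA7 AT3G60330 and AHA11 AT5G62670). The other 4 are type 2C protein phosphatases of clade D (AT5G02760, AT3G17090, AT4G38520 and AT3G51370). All 10 were found, and all were above 0 in every library. The libraries, 1 per condition, were DAYi with 1 µM dexamethasone (DEX), DAYi with ethanol (EtOH) as mock, the brassinosteroid (BR) receptor null mutant bri1-116, and the wild-type accession Col-0. Each was made from light-grown seedlings of 9 days and from dark-grown seedlings of 5 days, so light and age differ together. DAYi carries a DEX-inducible hairpin against DAY (AT3G51140), a membrane protein with a DnaJ-like domain, in the Col-0 background.

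In the acid growth model, H+-ATPases in the plasma membrane acidify the cell wall, expansins loosen it and the cell elongates. A pump is switched on when its penultimate threonine is phosphorylated and a 14-3-3 protein binds there. Clade D phosphatases remove that phosphate, and SAUR proteins, induced by auxin and BR, inhibit these phosphatases. Pump activity is thus set largely at the protein level, which transcript levels do not show.

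DAY transcript checked the labels. In the light it was at 6.88 FPKM (fragments normalised to transcript length and library size) with DEX and 56.9 FPKM with EtOH. In the dark it ran against the label, at 34.8 FPKM in the library labelled DEX and 13.4 FPKM in its EtOH counterpart. Dark bri1-116 also had more DAY transcript than Col-0, 32.8 against 13.8 FPKM. BRI1, the BR receptor gene (AT4G39400), was below its EtOH level in DEX-labelled DAYi under both light conditions, with 30.2 FPKM where EtOH-treated light seedlings had 54.1 FPKM, and 43.0 FPKM where the dark EtOH library had 68.0 FPKM. An unexplained number also stands in each DAYi title, 3 beside EtOH and 25 beside DEX. If these name plant lines, line and treatment cannot be told apart. No Col-0 library with DEX was analysed here, so DEX itself and silencing of DAY cannot be told apart either. The titles and genotype fields of the dark bri1-116 and Col-0 libraries name opposite genotypes, and they are taken here by title. By title, BRI1 in bri1-116 was 0.602 of its Col-0 level in the dark (42.5 against 70.6 FPKM) and 0.573 in the light (33.3 against 58.1 FPKM), and the dark library titled Col-0 was near EtOH-treated DAYi (68.0 FPKM). The dark pair taken by title thus ran in the same direction as the light pair for BRI1, with no ratio past 2-fold. For light bri1-116 the title opens with the word "new", also without explanation. An FPKM of 1 on 1 kb of transcript stood for an estimated 44.0 to 114 fragments. With 1 library per condition there is no replicate spread and no test between conditions was made, and intervals of a ratio (95%) cover counting error only. A gene is called higher or lower where its FPKM were above 0 and more than 2-fold apart.

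EtOH-treated DAYi and Col-0, which both lack induced silencing of DAY, gave a measure of how far like libraries lay apart. None of the 10 genes was more than 2-fold apart between them in the light, where 4.14% of all entries above 0 in both libraries were, or in the dark, where 4.41% were. Over the 20 ratios the range was 0.727 (AHA3 in the dark) to 1.33. Its upper end rests on 1 gene at a low level, AHA4 in the light (1.55 against 1.17 FPKM). The next highest ratio was 1.12 (AHA7 in the dark).

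Counted over the 10 genes, DAYi with DEX in the light had 1 higher (AHA1) and 1 lower (AT5G02760), where 12.1% of all entries were called higher and 16.3% lower. The dark DEX-labelled library had 2 higher (AHA3 and AHA7) and 1 lower (AT5G02760), where 9.36% were higher and 12.2% lower. In bri1-116 none was higher and 1 lower (AT5G02760) in the light, where 6.52% were higher and 7.82% lower. In the dark 1 was higher (AHA7) and none lower, where 11.2% were higher and 9.01% lower. With 10 genes these counts are near those shares, and nothing about the set as a whole is read from them. The median log2 ratio of the 10 was 0.25 in light DAYi, 0.32 in the dark DEX-labelled library, −0.09 in light bri1-116 and 0.0031 in dark bri1-116, beside medians of −0.04 to 0.03 over all entries.

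**Figure D1:**
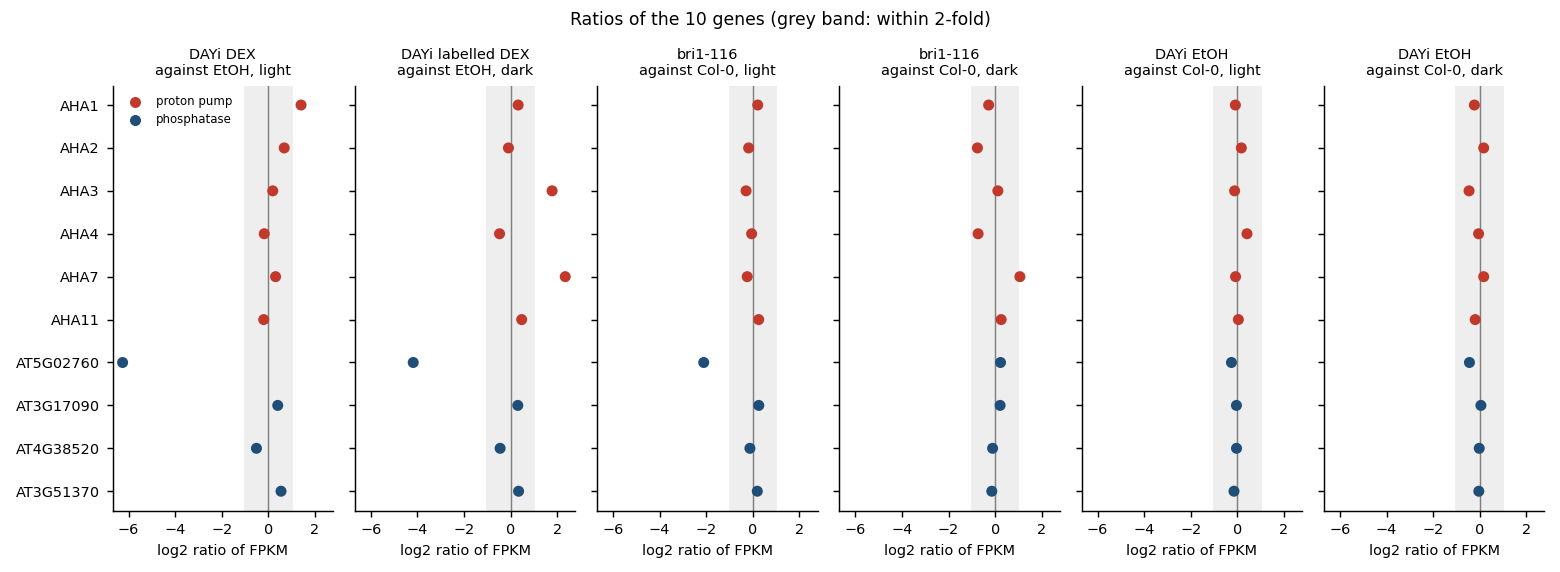
Log2 ratios of FPKM of the 10 genes in the comparisons of DAYi with DEX against EtOH, of bri1-116 against Col-0 and of EtOH-treated DAYi against Col-0, red points for pumps, blue for phosphatases, grey band within 2-fold. The points outside the band are AT5G02760 in 3 comparisons, AHA7 in 2, and AHA1 and AHA3 in 1 each, and none in either plot of EtOH-treated DAYi against Col-0.

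**Figure D2:**
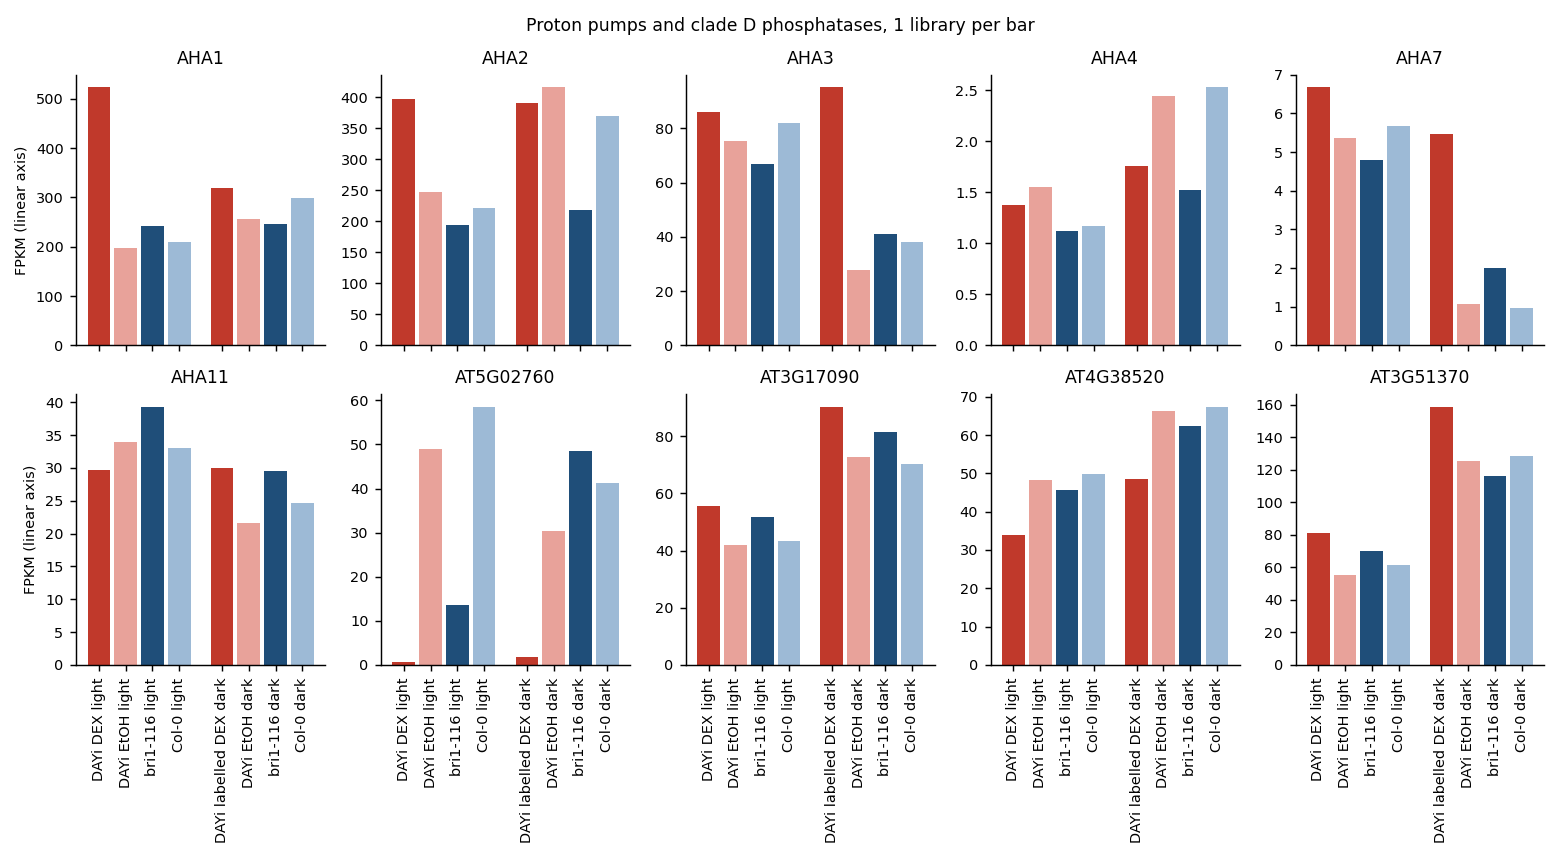
FPKM of each of the 10 genes (linear axis from 0, own scale per gene), 1 library per bar, light libraries left and dark libraries right. AT5G02760 is near 0 in both DEX-labelled libraries, AHA1 is highest in DAYi with DEX in the light, and AHA3 and AHA7 in the dark are highest in the DEX-labelled library.

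AT5G02760, a clade D phosphatase that RefSeq also names APD7, varied most among the 10 genes, 91.3-fold between its lowest and highest library. In the light it had 0.641 FPKM in DAYi with DEX against 48.9 FPKM with EtOH, and 13.6 FPKM in bri1-116 where Col-0 had 58.5 FPKM. In the dark it had 1.68 FPKM in the DEX-labelled DAYi library against 30.4 FPKM in its EtOH counterpart, and 48.4 FPKM in bri1-116 where Col-0 had 41.3 FPKM. Both DEX-labelled libraries thus lay below the other 6, of which light bri1-116 was the lowest.

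The transcript was 76.3-fold lower with DEX in the light (interval 59.0 to 99.9) and 18.1-fold lower in the dark DEX-labelled library (15.7 to 20.9). In bri1-116 it was 4.31-fold lower than in Col-0 in the light (4.08 to 4.57), while in the dark the ratio was 1.17 (1.13 to 1.22), inside the range between EtOH-treated DAYi and Col-0. The 0.641 FPKM stood for an estimated 60 fragments and the 1.68 FPKM for 203. RefSeq places the gene on the forward strand of chromosome 5 from 625254 to 627124, with 4 exons. The deposited entry has the same start but ends at 629255. A neighbour on the opposite strand, AT5G02770, overlaps the RefSeq gene by 91 bp, and a long noncoding RNA, AT5G00875, overlaps it by 138 bp. AT5G02770 had 88.2 FPKM with DEX and 59.4 FPKM with EtOH in the light, and 148 FPKM in the dark DEX-labelled library against 120 FPKM in its EtOH counterpart. The library kit kept the strand, but whether counting used it is not given in the sources used here. The part of these overlaps and of the longer entry in the values was not tested.

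The 300 bases before the start of AT5G02760 are printed beside those of AT3G51370, the clade D member with the highest level in the dark, which stayed within 2-fold in all 4 comparisons of DAYi and bri1-116 but not between light and dark. Both were read from RefSeq on TAIR10.1, 5′ to 3′, at chr5:624954-625253 and chr3:19068827-19069126, both on the forward strand. Capitals mark matches on either strand to the G-box CACGTG, to the BR response elements CGTGTG and CGTGCG, to the auxin response element TGTCTC and to the E-box CANNTG, of which the G-box is one form.
AT5G02760: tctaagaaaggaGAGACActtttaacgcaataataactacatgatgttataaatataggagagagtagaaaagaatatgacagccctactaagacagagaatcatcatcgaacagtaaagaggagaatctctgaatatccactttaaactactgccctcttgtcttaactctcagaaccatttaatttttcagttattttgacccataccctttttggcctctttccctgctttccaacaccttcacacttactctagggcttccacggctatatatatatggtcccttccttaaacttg
AT3G51370: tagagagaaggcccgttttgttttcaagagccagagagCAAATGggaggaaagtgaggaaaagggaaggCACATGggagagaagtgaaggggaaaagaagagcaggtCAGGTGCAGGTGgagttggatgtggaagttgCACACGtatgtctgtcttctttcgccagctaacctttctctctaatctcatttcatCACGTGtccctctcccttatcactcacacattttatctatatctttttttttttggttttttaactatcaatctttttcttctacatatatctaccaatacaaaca
The window of AT5G02760 held 1 match, TGTCTC on the reverse strand, 288 bases before the start. That of AT3G51370 held CACGTG 106 bases and CGTGTG on the reverse strand 162 bases before the start, and 5 E-boxes including that G-box. Over the same window of 27437 protein-coding genes, 12.97% held TGTCTC, 7.09% CACGTG, 6.12% CGTGTG, 1.78% CGTGCG and 61.9% CANNTG. Of the other 8 members, AHA4, AHA7 and AHA11 held 1 E-box each and the rest no match.

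The other 3 phosphatases stayed within 2-fold in all 4 comparisons of DAYi and bri1-116. AT3G51370 had 80.8 FPKM with DEX and 55.4 FPKM with EtOH in the light, and 159 FPKM in the dark DEX-labelled library against 125 FPKM in its EtOH counterpart. In bri1-116 it had 70.03 FPKM in the light against 61.4 FPKM in Col-0, and 116 FPKM in the dark against 129 FPKM. Its ratio of 1.46 with DEX in the light lay above the range between EtOH-treated DAYi and Col-0.

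AT3G17090 had 55.6 FPKM with DEX against 42.0 FPKM with EtOH in the light, and 90.3 FPKM in the dark DEX-labelled library against 72.9 FPKM in its EtOH counterpart. Its ratios of 1.32 and 1.24 lay inside the range between EtOH-treated DAYi and Col-0, but above the gene's own ratios there, 0.970 in the light and 1.03 in the dark. AT4G38520, or APD6, had 34.01 FPKM with DEX against 48.4 FPKM with EtOH in the light, a ratio of 0.703 just below that range. It had 48.6 FPKM in the dark DEX-labelled library against 66.4 FPKM in its EtOH counterpart, a ratio of 0.733 inside it. In bri1-116 its values were 45.5 FPKM in the light, against 49.8 FPKM in Col-0, and 62.4 FPKM in the dark, against 67.4 FPKM. The summed FPKM of the 4 phosphatases in the dark was 299 in the DEX-labelled library and 295 in its EtOH counterpart, of which AT5G02760 made up 0.560% and 10.3%. In the light AT5G02760 made up 0.375% of that sum with DEX and 25.1% with EtOH, and 7.51% in bri1-116 and 27.5% in Col-0.

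**Figure D3:**
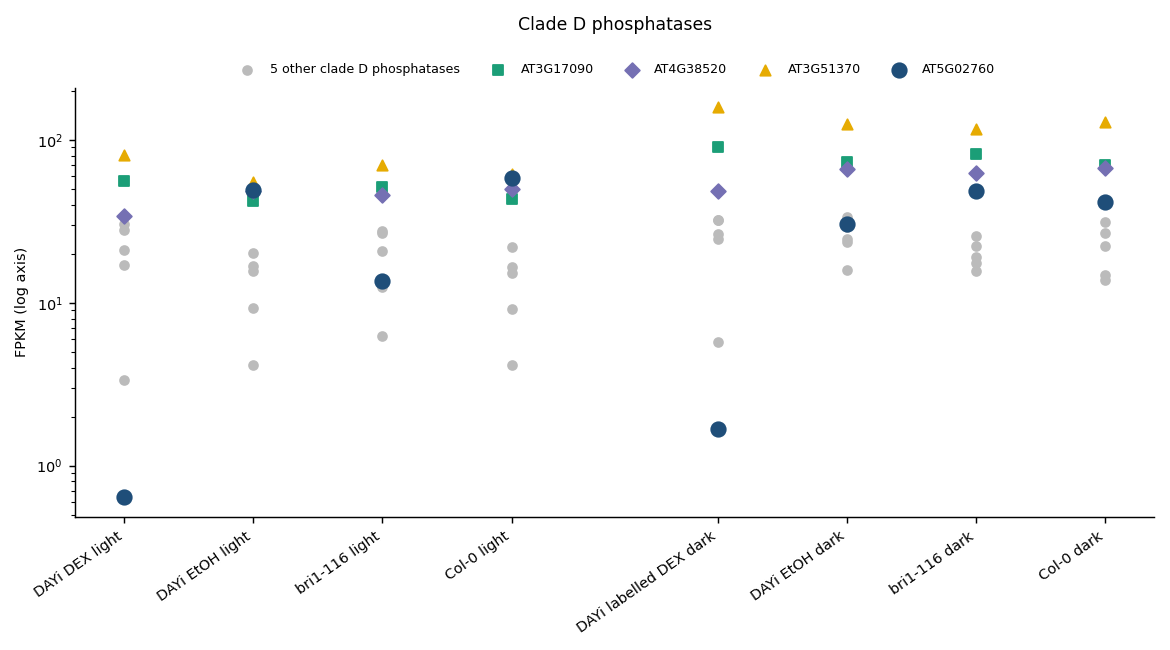
FPKM (log axis) of the 4 clade D phosphatases described and of 5 others of the clade, 1 point per gene and library, light libraries left and dark libraries right. AT5G02760 lies lowest in DAYi with DEX in the light (0.641 FPKM) and in the dark DEX-labelled library (1.68 FPKM), while the other 3 marked genes stay between 34.01 and 159 FPKM.

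Of the 5 further phosphatases of the clade, 1 was more than 2-fold apart in each DAYi comparison and none in bri1-116. Of all entries, 12.1% were higher and 16.3% lower in light DAYi, and 9.36 and 12.2% in the dark DEX-labelled library. In bri1-116 6.52% were higher and 7.82% lower in the light, and 11.2 and 9.01% in the dark. With 5 genes the counts are near those shares, and no difference between DAYi and bri1-116 is read from them. AT5G06750 had 21.1 FPKM with DEX in the light against 9.27 FPKM with EtOH. AT5G66080 had 5.71 FPKM in the dark DEX-labelled library against 23.7 FPKM in its EtOH counterpart. No member of the clade other than AT5G02760 was therefore called lower in the light.

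AHA1 and AHA2, the most widely expressed pumps of the plant, together held 78.0 to 92.7% of the summed FPKM of the 6 pumps. AHA1 had 523 FPKM in DAYi with DEX in the light against 197 FPKM with EtOH, and 243 FPKM in bri1-116 where Col-0 had 210 FPKM. In the dark it had 320 FPKM in the DEX-labelled DAYi library against 255 FPKM in its EtOH counterpart, and 247 FPKM in bri1-116 where Col-0 had 300 FPKM. The light library with DEX was above all the others, and the other 7 spanned 197 to 320 FPKM.

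The light ratio of AHA1 with DEX was 2.65 (2.62 to 2.68). In the other comparisons it was 1.25 in the dark DEX-labelled library, 1.15 in light bri1-116 and 0.824 in dark bri1-116. AHA2 had 398 FPKM with DEX in the light against 248 FPKM with EtOH, and 390 FPKM in the dark DEX-labelled library against 416 FPKM in its EtOH counterpart. In bri1-116 it had 195 FPKM in the light against 221 FPKM in Col-0, and 218 FPKM in the dark against 370 FPKM. Its ratios of 1.61 in light DAYi and 0.590 in dark bri1-116 did not pass 2-fold, but lay outside the range between EtOH-treated DAYi and Col-0.

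The balance between these pumps was read as a ratio within each library. AHA1 over AHA2 was 1.31 with DEX and 0.797 with EtOH in the light, and 1.25 in bri1-116 and 0.951 in Col-0. In the dark it was 0.819 in the DEX-labelled library and 0.614 in its EtOH counterpart, and 1.13 in bri1-116 and 0.810 in Col-0. The ratio exceeded 1 in DAYi with DEX in the light and in both bri1-116 libraries, and in none of the 4 EtOH-treated DAYi and Col-0 libraries. The dark DEX-labelled library was at the level of dark Col-0, and the dark EtOH-treated DAYi and Col-0 libraries were themselves 0.614 and 0.810. The dark DAYi pair thus lay about as far apart as these controls. Read as a fold, the light bri1-116 pair (1.25 and 0.951) also lay about as far apart as these dark controls. It lay further apart than the light EtOH-treated DAYi and Col-0 libraries (0.797 and 0.951). The dark bri1-116 pair (1.13 and 0.810) lay only somewhat further apart than the dark controls. With exchanged labels the dark bri1-116 pair reads 0.810 against 1.13. AHA1 and AHA2 share few stretches: 0.348% of the 50-base windows of the AHA1 transcript and 0.451% of those of AHA2 occur in another gene. The gene sharing most of them was in both cases the other pump, and no other member shares any with another gene.

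**Figure D4:**
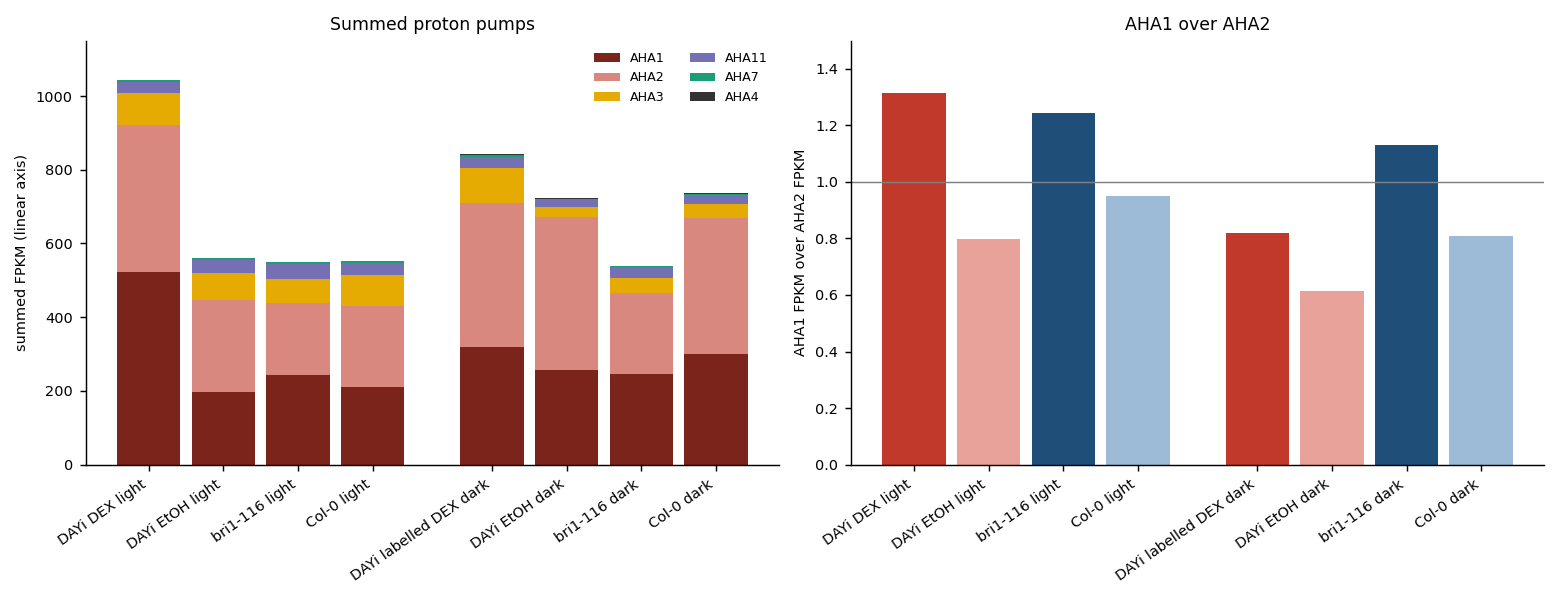
Left, FPKM of the 6 pumps stacked for each library, and right, the ratio of AHA1 FPKM to AHA2 FPKM with a line at 1, light libraries left and dark libraries right in each plot, 1 library per bar. The sum is highest in DAYi with DEX in the light (1045 FPKM), and the ratio is above 1 there and in both bri1-116 libraries. It is 0.614 in dark EtOH-treated DAYi and 0.810 in dark Col-0, which both lack induced silencing of DAY.

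Summed over the 6 pumps, transcript was 1045 FPKM with DEX and 562 FPKM with EtOH in the light (ratio 1.86), and 842 FPKM in the dark DEX-labelled library and 724 FPKM in its EtOH counterpart (1.16). In bri1-116 the sum was 550 FPKM in the light against 553 FPKM in Col-0 (0.994), and 539 FPKM in the dark against 736 FPKM (0.733). The pump sum over the phosphatase sum was 6.11 with DEX against 2.89 with EtOH in the light, and 1.75 in dark bri1-116 against 2.39 in dark Col-0. The remaining pairs were closer, 3.04 in light bri1-116 against 2.60 in Col-0, and 2.81 in the dark DEX-labelled library against 2.46 in its EtOH counterpart. These quotients leave out the 5 further phosphatases of the clade. Those summed to 99.6 FPKM with DEX against 66.1 FPKM with EtOH in the light, and to 121 against 127 FPKM in the dark DAYi pair. In bri1-116 they summed to 93.9 against 67.1 FPKM in the light and to 100.1 against 108.9 FPKM in the dark.

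Both green mesophyll markers, abundant transcripts of a green seedling, were lower in the light with DEX. LHCB1.1, a light-harvesting protein, had 1144 FPKM with DEX against 9065 FPKM with EtOH, and RBCS1A, a Rubisco subunit, 4794 FPKM against 21795 FPKM. Whether the lower level of such abundant RNA bears on the FPKM of AHA1 was not tested. A rescaling of the libraries by median ratios left AHA1 at a log2 ratio of 1.31 in place of 1.41, which does not decide this. The vacuolar proton pumps had a median log2 ratio of FPKM + 1 of 0.41 in this comparison, where the median of all entries of at least 1 FPKM in either library was 0.04.

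AHA3, known for its place in phloem companion cells, had 95.1 FPKM in the dark DEX-labelled library against 27.7 FPKM in its EtOH counterpart, and 41.2 FPKM in dark bri1-116 where Col-0 had 38.0 FPKM. In the light it had 86.0 FPKM with DEX against 75.3 FPKM with EtOH, and 67.0 FPKM in bri1-116 where Col-0 had 82.0 FPKM. The dark DEX-labelled library was thus at the level of the light libraries, and the other 3 dark libraries were below all of those. The ratio was 3.44 (3.36 to 3.52). A single entry, AT2G01021, took 28.6% of all FPKM in the DEX-labelled library, 15.8% in its EtOH counterpart, 13.5% in dark bri1-116 and 5.23% in dark Col-0. Scaling by median ratios left AHA3 at a log2 ratio of 1.74 in place of 1.78, and the part of this entry in the dark values was not tested further.

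Of the 4 phloem markers, 3 were higher in the same library, where 9.36% of all entries were higher. SUC2, the sucrose carrier of companion cells, had 157 FPKM there against 59.5 FPKM in its EtOH counterpart, APL, a regulator of phloem identity, 30.02 FPKM against 8.56 FPKM, and NEN4, a nuclease of sieve elements, 6.16 FPKM against 2.82 FPKM. SEOR1, a sieve element protein, had 38.2 FPKM against 28.7 FPKM. The summed phloem markers were 231 FPKM in the DEX-labelled library and 85.4 to 101 FPKM in the other 3 dark libraries, with none of the 4 at 0. In whole seedlings, more cells of a type and more RNA per cell cannot be told apart, and the part of phloem content in the AHA3 value was not tested. In the light with DEX, APL was also higher, 33.5 FPKM against 10.5 FPKM, while AHA3 and SUC2 (135 FPKM against 98.4 FPKM) stayed within 2-fold.

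AHA7, a pump of roots and root hairs, had 5.48 FPKM in the dark DEX-labelled library against 1.08 FPKM in its EtOH counterpart, a ratio of 5.08 (4.53 to 5.71). Dark bri1-116 had 2.002 FPKM against 0.959 FPKM in Col-0, a ratio of 2.09 (1.77 to 2.48). This call in bri1-116 was lost with FPKM + 1 (log2 ratio 0.62) or a minimum of 1 FPKM, and its direction turns if the dark bri1-116 and Col-0 labels are exchanged as their genotype fields have them, an exchange that would also set BRI1 higher in dark bri1-116. The light libraries had 6.67 FPKM with DEX against 5.37 FPKM with EtOH, and 4.80 FPKM in bri1-116 where Col-0 had 5.68 FPKM. The gene was thus low in the dark controls, 2.09-fold higher in dark bri1-116 and near the light level in the dark DEX-labelled library. An RNA on the same strand, AT3G00950, overlaps AHA7 by 134 bp, and the part of this in the values was not tested.

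All 4 root hair markers that could be read were higher in the same dark pairs, where 9.36 and 11.2% of all entries were higher. EXPA18 and EXPA7, root hair expansins, had 12.4 and 11.1 FPKM in the DEX-labelled library, against 0.731 and 0.873 FPKM in its EtOH counterpart. In dark bri1-116 they had 2.75 and 2.85 FPKM, against 0.525 and 0.933 FPKM in Col-0. COBL9, needed for hair growth, had 2.71 FPKM in the DEX-labelled library against 0.298 FPKM, and MRH6 2.85 FPKM against 0.0594 FPKM. In the dark bri1-116 pair both were below 1 FPKM, COBL9 at 0.729 against 0.276 FPKM and MRH6 at 0.669 against 0.165 FPKM. With FPKM + 1 only EXPA18 stayed past 2-fold in that pair (log2 ratio 1.30). Exchanged dark labels would turn the direction of all 4 there. In the light none of the 4 was more than 2-fold apart in either comparison, as AHA7 was not. With DEX in the light all 4 were still above their EtOH level, at ratios of 1.73 (COBL9) to 1.92 (EXPA7), where AHA7 had 1.24. In light bri1-116 all 4 were below Col-0, at ratios of 0.660 (EXPA18) to 0.912 (MRH6), where AHA7 had 0.845. Summed over the 4, the level was 29.1 FPKM in the DEX-labelled dark library against 1.96 FPKM and 7.00 FPKM in dark bri1-116 against 1.90 FPKM, and 27.5 to 61.7 FPKM in the light, with none of the 4 at 0. The part of root hair content in the AHA7 values was not tested.

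The entries whose log2(FPKM + 1) ran most like AHA7 over the 8 libraries were AT3G09925, an extensin family protein (Pearson r 0.998), EXPA18 (0.995) and the peroxidase AT1G30870 (0.995). Nearest to AT5G02760 were AT1G02180, a ferredoxin-like protein, APX6, an ascorbate peroxidase, and CSLC8, a cellulose synthase-like protein (AT2G24630), each with r 0.984. Nearest to AHA2 were VPS35A (0.993), UAH (0.988) and MYB88 (0.982), and nearest to AHA1 were AT2G23100 (0.970), AT2G34355 (0.970) and SFR6 (0.967). These are descriptions over 8 points that share libraries and light conditions, chosen as the highest of many.

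**Figure D5:**
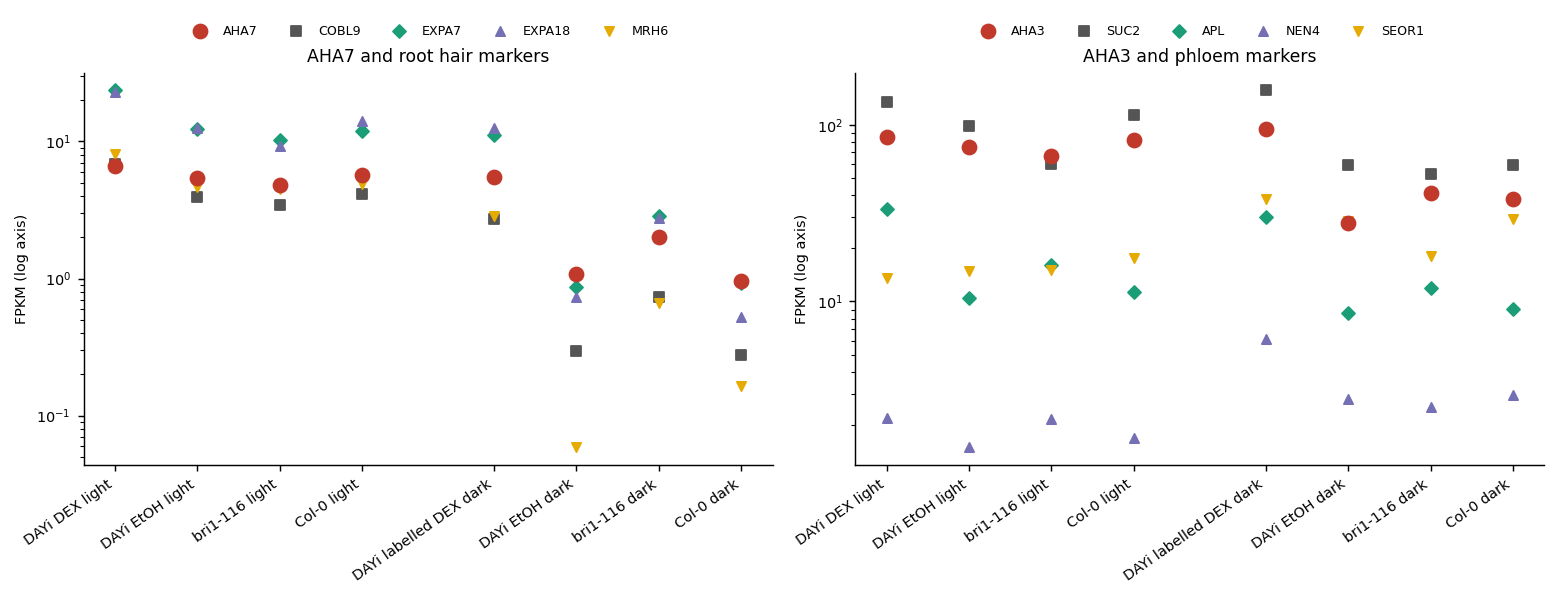
FPKM (log axis) in the 8 libraries, 1 point per gene and library, light libraries left and dark libraries right in each plot. Left, AHA7 with 4 root hair markers, all lowest in the dark EtOH and Col-0 libraries, and right, AHA3 with 4 phloem markers, where the dark DEX-labelled library has 95.1 FPKM of AHA3 and 157 FPKM of SUC2.

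AHA4 and AHA11 stayed within 2-fold in all 4 comparisons. AHA4, described in the root endodermis, spanned 1.13 to 2.53 FPKM over the 8 libraries. In the dark it had 1.76 FPKM in the DEX-labelled library against 2.44 FPKM in its EtOH counterpart, and 1.52 FPKM in bri1-116 where Col-0 had 2.53 FPKM. The endodermal marker CASP1, which builds the Casparian strip, had 77.6 FPKM against 200.2 FPKM and 36.0 FPKM against 137 FPKM in the same pairs, and CASP2 37.9 FPKM against 107 FPKM and 15.7 FPKM against 73.1 FPKM. Of the 4 endodermal markers, 2 were lower in the dark DEX-labelled library and 3 in dark bri1-116, where 12.2 and 9.01% of all entries were lower. SCR, a regulator of endodermal identity, had 14.1 against 25.2 FPKM and 24.6 against 22.8 FPKM. Summed over the 4, none of them at 0, the level was 143 FPKM against 349 FPKM and 83.9 FPKM against 249.9 FPKM. The part of endodermis content in the AHA4 values was not tested. AHA4 overlaps AT3G47960 on the opposite strand by 58 bp, and its deposited entry ends at 17700833, past the RefSeq end of 17697999. The part of these in its values was not tested either. AHA11, a broadly expressed pump, spanned 21.6 to 39.3 FPKM, and its ratio was highest in the dark DEX-labelled library, at 1.39. Its deposited entry ends at 25167943, past the RefSeq end of 25165209. AT5G62680 on the opposite strand, at 37.9 to 79.3 FPKM, overlaps AHA11 by 73 bp. The part of these in the AHA11 values was not tested.

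The order of the pumps by FPKM, which is per length, was AHA3 over AHA11 in all 8 libraries, both under AHA1 and AHA2. AHA7 was above AHA4 in 6 libraries and below it in EtOH-treated DAYi and Col-0 in the dark. There is no replicate spread against which these neighbours could be set.

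Other members differed between the light (9 days) and the dark (5 days). In Col-0, AHA3 (82.0 FPKM in the light and 38.0 FPKM in the dark) and AHA7 (5.68 and 0.959 FPKM) were higher in the light, and AHA4 (1.17 and 2.53 FPKM) and AT3G51370 (61.4 and 129 FPKM) were lower, of which the call of AHA4 was lost with FPKM + 1 and that of AHA7 with a minimum of 1 FPKM, where 22.9% of all entries were called higher and 19.1% lower. In EtOH-treated DAYi, where 21.2% were called higher and 19.8% lower, AHA3 (75.3 and 27.7 FPKM), AHA7 (5.37 and 1.08 FPKM) and AT3G51370 (55.4 and 125 FPKM) were called in the same directions, and AHA4 was not (1.55 and 2.44 FPKM). AHA2 had 221 FPKM in the light and 370 FPKM in the dark in Col-0, and 248 and 416 FPKM in EtOH-treated DAYi. AT5G02760 went the other way from the other phosphatases, with 58.5 FPKM in the light and 41.3 FPKM in the dark in Col-0, and 48.9 and 30.4 FPKM in EtOH-treated DAYi, both within 2-fold.

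The genes that act on the pumps were read from lists of the pathway. Of the 14 SAUR genes of the SAUR19 and SAUR63 subfamilies, 12 were lower and none higher with DEX in the light, 13 lower and none higher in the dark DEX-labelled library, 10 lower and none higher in light bri1-116, and 13 lower and 1 higher (SAUR61, 17.9 FPKM against 8.21 FPKM) in dark bri1-116, where 16.3, 12.2, 7.82 and 9.01% of all entries were lower. SAUR22 (0 against 2.39 FPKM with DEX in the light) and SAUR68 (0 against 1.36 FPKM in light bri1-116) were listed at 0 and are not counted. SAUR24, for example, had 0.787 FPKM with DEX against 26.1 FPKM with EtOH in the light, and 5.39 FPKM in dark bri1-116 against 54.3 FPKM in Col-0. Members of a subfamily are similar in sequence, so that reads may be split between them. In dark bri1-116 most of these inhibitors of the phosphatases were thus low where AT5G02760 was not.

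Among 9 regulators of the pumps, only PKS5, a kinase that inhibits AHA2, was called in the 4 comparisons. It had 17.6 FPKM with DEX against 7.59 FPKM with EtOH in the light, and 12.7 FPKM in dark bri1-116 against 35.8 FPKM in Col-0. FER, the receptor kinase FERONIA, had 74.7 FPKM in dark bri1-116 against 128 FPKM, and TMK1, an auxin-linked receptor kinase, 38.2 FPKM against 72.8 FPKM, both within 2-fold. None of the 4 of 12 14-3-3 genes that could be read was called in the 4 comparisons, the other 8 lying in entries that join several loci. GRF10, the most abundant of these 4, had 219 FPKM in dark bri1-116 against 310 FPKM in Col-0. Of all entries, 12.1% were higher and 16.3% lower in light DAYi, and 9.36 and 12.2% in the dark DEX-labelled library. In bri1-116 6.52% were higher and 7.82% lower in the light, and 11.2 and 9.01% in the dark. With so few genes, nothing about the regulators or the 14-3-3 genes as sets is read from these counts.

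Of the 5 other plasma membrane pumps, AHA6 was listed at 0 in all 8 libraries. AHA9, a pump of anthers, was at a low level and higher with DEX in the light, 0.630 FPKM against 0.0450 FPKM, and in the dark DEX-labelled library, 1.05 FPKM against 0.167 FPKM in its EtOH counterpart. In bri1-116 it was under 0.1 FPKM and called higher in the light and lower in the dark, and AHA5, AHA8 and AHA10 stayed within 2-fold in all 4 comparisons. Of 27 genes of the vacuolar proton pumps, which acidify the vacuole and not the wall, 1 was called in the 4 comparisons. This was VHA-E3, with 28.0 FPKM in the dark DEX-labelled library against 88.4 FPKM in its EtOH counterpart. Of all entries, 9.36% were higher and 12.2% lower in that pair, and 12.1 and 16.3% in light DAYi. In bri1-116 6.52% were higher and 7.82% lower in the light, and 11.2 and 9.01% in the dark. The distance of the list from these shares was not tested. Among 4 guard cell markers, 1 was lower in DAYi with DEX in the light (HT1, 1.81 FPKM against 6.28 FPKM), 1 in light bri1-116 (SLAC1, 1.17 FPKM against 4.22 FPKM) and 1 in dark bri1-116 (GORK, 2.63 FPKM against 5.36 FPKM). Of all entries, 16.3, 7.82 and 9.01% were lower there. PORA, a chlorophyll synthesis enzyme of dark-grown seedlings, had 62.8 FPKM in the dark DEX-labelled library against 488 FPKM in its EtOH counterpart, and 1586 FPKM in dark bri1-116 against 402 FPKM in Col-0.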

How the data were processed

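RNA-seq was made from whole seedlings in 8 libraries, 1 per condition, prepared with a stranded mRNA kit and sequenced on a NextSeq500. According to the methods and to the submitters' processing notes, the authors used CASAVA 1.8.2, TopHat2 2.0.13 on TAIR10 and Cuffdiff 2.2.0. The values used are the FPKM that the authors deposited in 4 full tables of 26987 entries. Their fold change, p-value and q-value columns and 12 shorter sheets hold the authors' own comparisons and were not used, and 0 columns of per-sample values were left out. Whether the tables were scaled together is not given in the sources used here. This bears on DAYi against Col-0 and on light against dark.

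Ratios are of FPKM without a pseudocount, and list medians of log2(FPKM + 1). The study's threshold of 2-fold was kept. Groups were taken from the titles. The 10 genes and 13 lists (95 loci, 85 usable) were chosen with earlier results of these data known. All 10 were named, up to 4 called genes of each list, and for AHA1, AHA2, AHA7 and AT5G02760 the 3 entries with the highest Pearson r over 8 libraries among those of at least 5 FPKM in 1 library. Other genes named (AT2G01021, SCR, SAUR22, SAUR68, SAUR24 in bri1-116, SAUR61, SEOR1, FER, TMK1, GRF10, AHA6 and members within 2-fold) were chosen after their values were seen.

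Fragment numbers were estimated from the steps of low FPKM at 2113 single-exon genes of at least 900 bp. Between 55.75 and 78.6% of such values were whole within 0.15, and the interval of a ratio is an exact binomial one on these estimates. The estimate was tested on simulated whole fragments, with a largest error of 0.0477%. The simulation used the same length correction as the estimate and no fractional fragments. It therefore shows only that the calculation runs as written, and the error in the real libraries is not known. Starts of 7478 of 26307 entries equal those of RefSeq TAIR10.1, from which sequences and overlaps were taken. Alternatives were a 1.5-fold threshold, FPKM + 1, a minimum of 1 FPKM, scaling by median ratios and exchanged dark labels. Python 3.11.15, numpy 2.4.6, pandas 2.3.3, scipy 1.17.1 and matplotlib 3.10.9 were used.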

Additional observations from a re-analysis of the deposited data

Results flagged for a closer look

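AT5G02760 was 18.1-fold lower in the dark DEX-labelled DAYi library, but not lower in dark bri1-116, and these log2 ratios differed by −4.41. It was lower in light bri1-116 and not in dark bri1-116, and the dark log2 ratio exceeded the light one by 2.34. AHA7 was higher in dark bri1-116 and slightly below Col-0 in light bri1-116, with log2 ratios that differed by 1.30. Signs were opposite in the pairs named, with 1 library per condition, and the difference was not tested. The dark bri1-116 ratio of AT5G02760 (1.17) and the light bri1-116 ratio of AHA7 (0.845) lay inside the range of 0.727 to 1.33 between EtOH-treated DAYi and Col-0. The upper end of that range rests on AHA4, a gene at a low level. AT5G02760 itself had a ratio of 0.736 between these controls in the dark. With 1 library per condition, neither ratio in bri1-116 is read as a change. With the dark labels exchanged, the dark bri1-116 log2 ratio of AT5G02760 would be −0.23.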

How the results depend on the processing

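All 8 counts of called genes were within 1.5 times of their value after scaling by median ratios, and no gene's log2 ratio changed sign under that scaling or with FPKM + 1 (40 ratios each, largest shifts 0.09 and 1.33). A minimum of 1 FPKM left 1 called gene in light DAYi, without AT5G02760, and 0 in dark bri1-116, without AHA7. With FPKM + 1 the count in dark bri1-116 was 0 as well. At 1.5-fold it was 3 there, and 8 for EtOH-treated DAYi in the light against the dark. With the dark bri1-116 and Col-0 labels exchanged, AHA7 had a log2 ratio of −1.06 in bri1-116 against Col-0, and 1 gene was called for Col-0 in the light against the dark. By title, BRI1 had 42.5 FPKM in dark bri1-116 where Col-0 had 70.6 FPKM, the direction of the light pair. In Col-0 light against dark, the 4 calls became 3 with FPKM + 1 and 3 with the minimum. No paired analysis was possible because each condition has 1 library, and no library was left out. AHA4, AHA7 and the DEX values of AT5G02760 rest on the fewest fragments.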
